A study of Mus musculus with 3 samples.

Results

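Cycling mCherry cells are the bone marrow progenitors of an AML1-ETO reporter mouse that carried RNA of dividing cells. They were selected on measured counts of cell cycle genes in the mCherry matrix. A cell had at least 1000 genes, at least 2000 unique molecular identifiers (UMIs, counts of single RNA molecules) and under 10% mitochondrial UMIs, and its UMIs of Mki67, Top2a, Birc5, Cdk1 and Ube2c summed to at least 5. Of 10419 mCherry cells that passed the filters, 901 met the rule, or 8.65% (exact Clopper-Pearson 95% interval 8.11 to 9.20%), out of 27541 such cells in the series. They are set against the 5878 mCherry cells with a marker sum of 0, called sum-0 cells. The 3640 mCherry cells with 1 to 4 marker UMIs lie between and enter neither side.

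The study sorted bone marrow of C57BL/6 mice for DAPI-negative (living), lineage-negative and c-kit-positive cells and made 3 droplet libraries of the 10x Genomics type, 1 per group. The mCherry and non_mCherry libraries are sort fractions of a single mouse with Mx1-Cre and a heterozygous conditional Runx1-Runx1t1 knock-in, whose expression, with mCherry encoded downstream, starts after poly(I:C). A wild-type animal gave the control library, and the labels do not say whether it received poly(I:C). The series concerns fatty acid metabolism and the block of differentiation in AML1-ETO pre-leukemia. Mx1-Cre acts in any cell that answers to interferon, so the fusion is not limited to a single cell type in this model. With 1 library per group and 1 mouse per genotype, no test between groups was possible, cells are not replicates, and every interval below covers counting error only.

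AML1-ETO joins the DNA-binding domain of RUNX1 to most of the corepressor protein ETO, encoded by Runx1t1, and is known for holding myeloid progenitors back from maturing. Blood stem cells divide rarely, while the progenitors below them divide often. Mki67 encodes the Ki-67 protein that coats mitotic chromosomes, Top2a the topoisomerase that untangles replicated DNA, Birc5 the survivin subunit of the chromosomal passenger complex, Cdk1 the kinase that drives entry into mitosis, and Ube2c a ubiquitin-conjugating enzyme of the anaphase-promoting complex.

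These late cell cycle genes are commonly switched together through CCAAT boxes, bound by NF-Y, and through cell cycle homology regions with the letters TTTGAA or TTCGAA, bound by the DREAM and MuvB complexes. The RefSeq promoters (GRCm38.p6, 250 bases before to 50 after the start) were searched on both strands for these letters, overlapping matches counted each. All 5 marker genes had an entry. At least 1 CCAAT and at least 1 TTTGAA or TTCGAA stood in 4 of them, against 7.52% of all 32851 promoters with both. CCAAT alone stood in 37.4% of all promoters, and TTTGAA or TTCGAA in 19.2%. The Mki67 window (chr7:135716330-135716629, minus strand) held 3 CCAAT and 2 TTTGAA. The promoters below are shown because the genes chose the cells, with matches in capitals, in the order Cdk1 (chr10:69352863-69353162, minus strand), Top2a (chr11:99024140-99024439, minus strand), Ube2c (chr2:164769679-164769978, plus strand) and Birc5 (chr11:117848987-117849286, plus strand). Cdk1 had 3 CCAAT and 2 TTTGAA. Top2a had 6 CCAAT, 2 TTTGAA and 2 TTCGAA. Ube2c had 6 CCAAT, a pair of them overlapping, and 1 TTTGAA. Birc5 had 0 of each in this window, which says nothing of the factors.
Cdk1: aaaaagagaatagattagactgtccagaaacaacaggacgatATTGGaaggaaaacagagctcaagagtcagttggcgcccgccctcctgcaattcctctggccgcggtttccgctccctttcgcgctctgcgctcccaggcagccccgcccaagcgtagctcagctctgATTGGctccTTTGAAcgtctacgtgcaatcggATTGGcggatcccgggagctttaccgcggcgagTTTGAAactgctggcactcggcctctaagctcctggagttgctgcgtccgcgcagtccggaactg
Top2a: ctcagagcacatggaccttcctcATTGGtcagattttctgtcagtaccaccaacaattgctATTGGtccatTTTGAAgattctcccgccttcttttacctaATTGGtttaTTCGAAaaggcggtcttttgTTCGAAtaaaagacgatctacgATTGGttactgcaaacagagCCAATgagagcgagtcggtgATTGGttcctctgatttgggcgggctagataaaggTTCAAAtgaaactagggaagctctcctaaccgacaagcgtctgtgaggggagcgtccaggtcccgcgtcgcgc
Ube2c: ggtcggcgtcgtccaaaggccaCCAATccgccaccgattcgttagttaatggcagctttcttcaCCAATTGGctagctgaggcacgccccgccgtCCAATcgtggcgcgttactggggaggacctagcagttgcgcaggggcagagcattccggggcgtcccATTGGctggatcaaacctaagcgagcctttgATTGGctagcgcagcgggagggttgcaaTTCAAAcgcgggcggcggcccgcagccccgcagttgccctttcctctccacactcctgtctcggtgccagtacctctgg
Birc5: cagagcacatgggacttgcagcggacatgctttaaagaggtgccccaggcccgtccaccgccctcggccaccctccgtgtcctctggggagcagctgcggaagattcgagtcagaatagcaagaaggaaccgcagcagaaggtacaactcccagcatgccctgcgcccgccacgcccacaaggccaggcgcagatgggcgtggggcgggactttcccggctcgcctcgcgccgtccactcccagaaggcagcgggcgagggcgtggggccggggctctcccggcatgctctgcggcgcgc

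The cycling share was far lower in mCherry than in the other libraries. It was 8.65% in mCherry (901 of 10419 cells), 46.2% in non_mCherry (3722 of 8056; 45.1 to 47.3%) and 57.5% in control (5213 of 9066; 56.5 to 58.5%). The control library was deeper, with a median of 15621 UMIs per cell against 8241 in mCherry and 9361 in non_mCherry. After every cell was thinned to 5000 UMIs, the share was 5.96% in mCherry (576 of 9668, 751 shallower cells left out), 32.0% in non_mCherry (2055 of 6431, 1625 left out) and 28.1% in control (2414 of 8582, 484 left out). Marker UMIs also occur in cells that should not divide. Of 45 control cells with at least 5 UMIs of the neutrophil genes Retnlg, Mmp8 and Cxcr2, 11 met the rule (24.4%, 12.9 to 39.5%, median depth 5852 UMIs), and 2 of 20 did so at 5000 UMIs. The interval at 5000 UMIs, 1.23 to 31.7%, contains the shares of mCherry and of control at that depth, so it sets neither of them apart. In mCherry only 3 cells had such neutrophil UMIs, of which 0 met the rule.

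The marker sums of the 901 cells were spread widely. Their quartiles were 8, 21 and 54 UMIs, with a maximum of 171, while those of the 5213 cycling control cells were 9, 16 and 31, with a maximum of 156. As a rate, cycling cells had a median of 13.5 marker UMIs per 10000 in mCherry, 11.7 in non_mCherry and 8.32 in control. Of the mCherry cells, 259 had 5 to 9 marker UMIs, 184 had 10 to 19 and 458 had 20 or more. In control the same classes held 1557, 1475 and 2181 cells. Just inside the threshold, 77 mCherry cells had a sum of 5, at a median depth of 12149 UMIs, and just outside it 133 had a sum of 4, at 10822 UMIs.

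**Figure D1:**
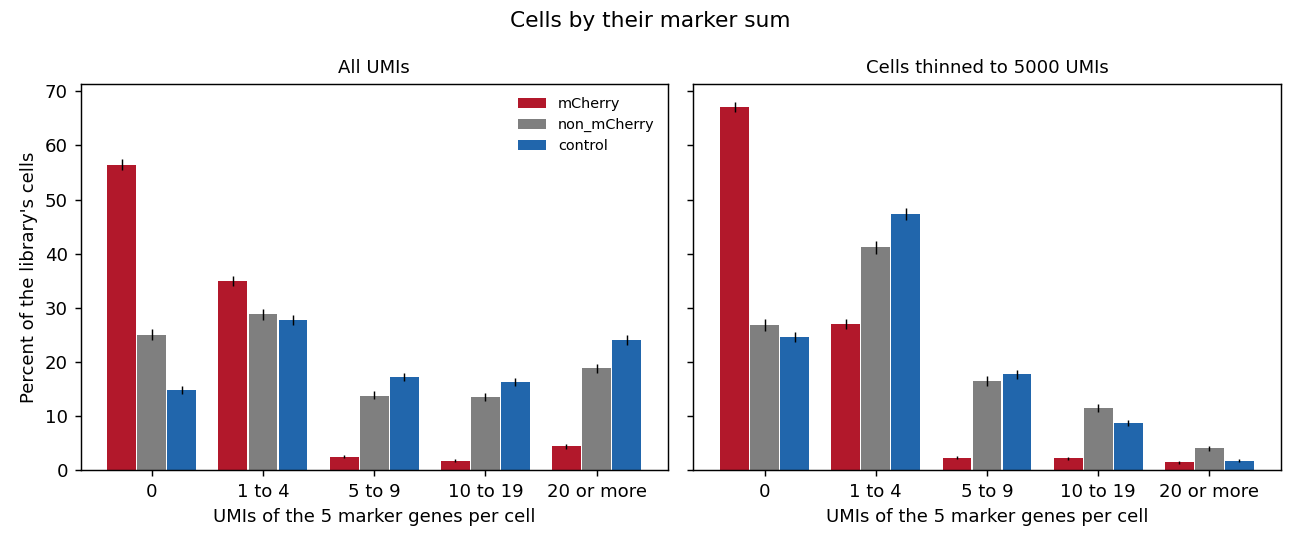
Percent of each library's cells (y axis) by the summed UMIs of Mki67, Top2a, Birc5, Cdk1 and Ube2c per cell (x axis), for mCherry, non_mCherry and control, from all UMIs (left) and with cells thinned to 5000 UMIs (right). Bars show the share with its exact 95% interval. In mCherry 56.4% of cells had a sum of 0, against 25% in non_mCherry and 14.8% in control, and after thinning 67.1%, 26.9% and 24.6%.

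The marker genes themselves, which chose the cells, are a description. Top2a stood at 623 CPM (UMIs per 1000000) over the summed UMIs of the 901 cells and was seen in 90.7% of them. Mki67 stood at 500 CPM (88.7% of cells), Ube2c at 429 CPM (66.5%), Birc5 at 306 CPM (81.9%) and Cdk1 at 204 CPM (77.0%). In cycling control cells the same genes stood at 311, 290, 178, 233 and 116 CPM. These levels follow in part from the rule, since a fixed sum asks a higher rate of shallower cells. At a sum of 5 the median rate was 4.12 marker UMIs per 10000 in mCherry and 3.06 in control.

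Other cell cycle genes, which the rule did not count, were high in the same cells. Of 42 measured S phase genes 40 were higher in cycling than in sum-0 mCherry cells by at least 0.32 on the log2 scale, and 0 were lower, with a median log2 ratio of 2.04. Of all measured genes outside the cell cycle, 17.6% were that much higher and 16.8% that much lower. Here and below a gene is measured at 20 CPM or more in either group, and the ratio is log2((CPM + 5)/(CPM + 5)). Of 47 measured G2 and M phase genes other than the markers, all 47 were higher (median 2.72). Of 18 replication-dependent histone genes 16 were higher (median 2.08). A gene that reached 20 CPM in the cycling cells alone had to be higher, which held for 23 of the S phase, 32 of the G2 and M and 11 of the histone genes. Of those at 20 CPM or more in both groups, 17 of 19 S phase genes (median 1.27), 15 of 15 G2 and M genes (median 1.59) and 5 of 7 histone genes (median 1.07) were higher. Rrm2, a ribonucleotide reductase subunit that makes DNA precursors, stood at 68.6 CPM in cycling and 0.729 CPM in sum-0 cells. Hist1h1b, a linker histone, stood at 582 against 12.2 CPM, and Uhrf1, which keeps DNA methylation through replication, at 107 against 4.98 CPM. In control the same split gave medians of 0.80 for S phase (37 of 42 higher), 1.79 for G2 and M (36 of 37) and 1.37 for histones (16 of 19). Sum-0 control cells held more S phase RNA than sum-0 mCherry cells, 2401 against 1097 summed CPM.

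Within the 901 cells, Ube2c parted S phase RNA from mitotic RNA. Cells without a Ube2c UMI (302, or 33.5%) had 4871 summed CPM of S phase genes and 5025 CPM of G2 and M genes without the markers. Cells with 1 to 4 (307, 34.1%) had 4458 and 7224 CPM. Cells with 5 or more (292, 32.4%) had 2477 and 14560 CPM, the lowest S phase and the highest G2 and M level of these classes. Among single genes chosen after their values were seen, Cdc6, which licenses replication origins, stood at 58.6, 43.1 and 17.4 CPM from the lowest to the highest Ube2c class, and Plk1, a mitotic kinase, at 5.08, 19.3 and 122 CPM. Ube2c is a gene of the rule, so the sizes of these classes are a description. In control 1098 of 5213 cycling cells (21.1%) had 5 or more Ube2c UMIs and 43.5% had 1 to 4, and the highest class held 3686 CPM of S phase and 9168 CPM of G2 and M genes. Depth moved with Ube2c, at median totals of 14648.5, 15056 and 18119.5 UMIs in the 3 mCherry classes, and its part was not tested.

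**Figure D2:**
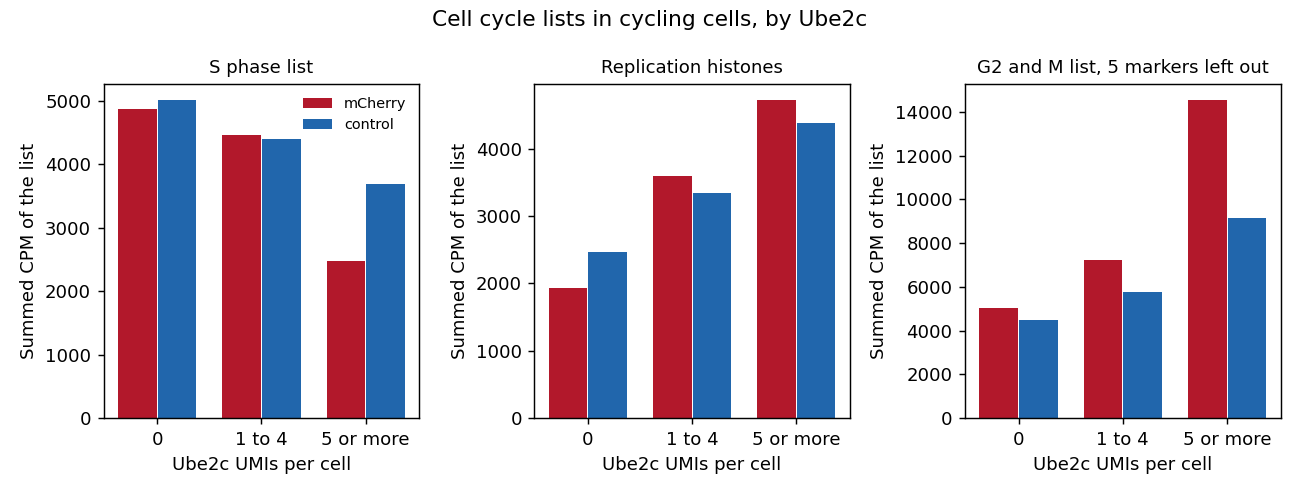
Summed CPM (y axes) of the S phase list, of replication-dependent histones and of the G2 and M list without the 5 markers, in cycling mCherry and cycling control cells with 0, 1 to 4, or 5 or more Ube2c UMIs (x axes). Bars are sums over cells with no error. In mCherry, S phase RNA was 2477 CPM in the highest class against 3686 CPM in control, and G2 and M RNA 14560 against 9168 CPM.

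Depth differed between the sides of the split. Cycling mCherry cells had quartiles of 12356, 15766 and 19827 UMIs, and sum-0 mCherry cells of 6247, 7616.5 and 9148.75. Only 105 of 5878 sum-0 mCherry cells (1.79%) reached the median of the cycling ones, and in control, where the medians were 19721 and 7816 UMIs, only 8 of 1343 (0.596%) did. Values in which sum-0 cells were weighted to the depth of the cycling cells therefore rest on the equivalent of 244 sum-0 cells in mCherry and 45 in control. They are called depth-weighted below. Doublet scores over 0.25 were found in 67 of the 901 cycling cells (7.44%) and in 129 sum-0 cells (2.19%). Barcodes shared with other libraries numbered 42 between mCherry and control and 34 between mCherry and non_mCherry. The median mitochondrial share was 2.35% in cycling and 2.53% in sum-0 mCherry cells.

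Dividing cells were unevenly spread over the kinds of mCherry cells. Cells with at least 3 UMIs of Cma1, the chymase of mast cells, met the rule in 30 of 820 (3.66%, 2.48 to 5.18%). Cells with 1 or 2 Cma1 UMIs met it in 183 of 1561 (11.7%). Their median depth was 8481 UMIs, against 6975.5 at 3 or more, and having a Cma1 UMI itself depends on depth. Cells with neither Cma1 nor Hlf met it in 74 of 1502 (4.93%). Cells with a UMI of Hlf, a transcription factor of blood stem cells, and none of Cma1 met it in 614 of 6536 (9.39%, 8.70 to 10.1%). At 5000 UMIs the shares were 2.11% at 3 or more Cma1 UMIs (12 of 569), 4.89% at 1 or 2 (48 of 982), 6.48% with Hlf and no Cma1 (361 of 5575) and 6.1% with neither (155 of 2542). Control cells with Hlf and without Cma1 met the rule in 878 of 1768 (49.7%), and at 5000 UMIs in 182 of 883 (20.6%, 18 to 23.4%). By this definition too the share was lower in mCherry. A single Hlf UMI need not mark the same kind of cell in both libraries. Hlf stood at 297 CPM in sum-0 mCherry and 69.8 CPM in sum-0 control cells, and the class had median depths of 8508.5 and 13623 UMIs. Cells with a Runx1t1 UMI, which can come from the fusion transcript or from the gene itself, met it in 63 of 753 (8.37%), and cells without one in 838 of 9666 (8.67%). At 5000 UMIs these were 12 of 396 (3.03%, 1.58 to 5.23%) and 564 of 9272 (6.08%, 5.60 to 6.59%), where having a Runx1t1 UMI itself depends on depth.

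Among cycling mCherry cells, a small class low in Cpa3 held most of the UMIs of secondary granule genes. Cpa3, the carboxypeptidase of mast cells, filled a large share of RNA in nearly all mCherry cells, but 280 had under 10 Cpa3 UMIs per 10000, a class chosen after the values were seen. Of these 53 met the rule (18.9%, 14.5 to 24.0%), and 15.0% did so at 5000 UMIs. They made up 5.88% of the 901 cycling cells, while 144 made up 2.45% of sum-0 cells. They carried 99.8% of the Camp UMIs of all cycling mCherry cells, 99.7% of Ngp, 99.3% of S100a8, 99.5% of S100a9, 91.5% of Elane, 69.3% of Prtn3 and 99.6% of Car1. Camp and Ngp are secondary granule genes of neutrophils, S100a8 and S100a9 their abundant calcium-binding proteins, Elane and Prtn3 primary granule proteases, and Car1 an erythroid carbonic anhydrase. Of Mpo, the myeloperoxidase of primary granules, the same cells held 7.33%, and of Ctsg, another primary granule gene, 9.32%. Hlf stood at 242 CPM in them and 284 CPM in the other cycling cells, and Runx1 at 131 and 253 CPM. Among sum-0 cells, those low in Cpa3 held 4.76% of the Camp UMIs, 53.4% of Ngp, 87.8% of S100a8 and 0% of Elane. The class held neutrophil and erythroid genes, so it need not be a single kind of cell.

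**Figure D3:**
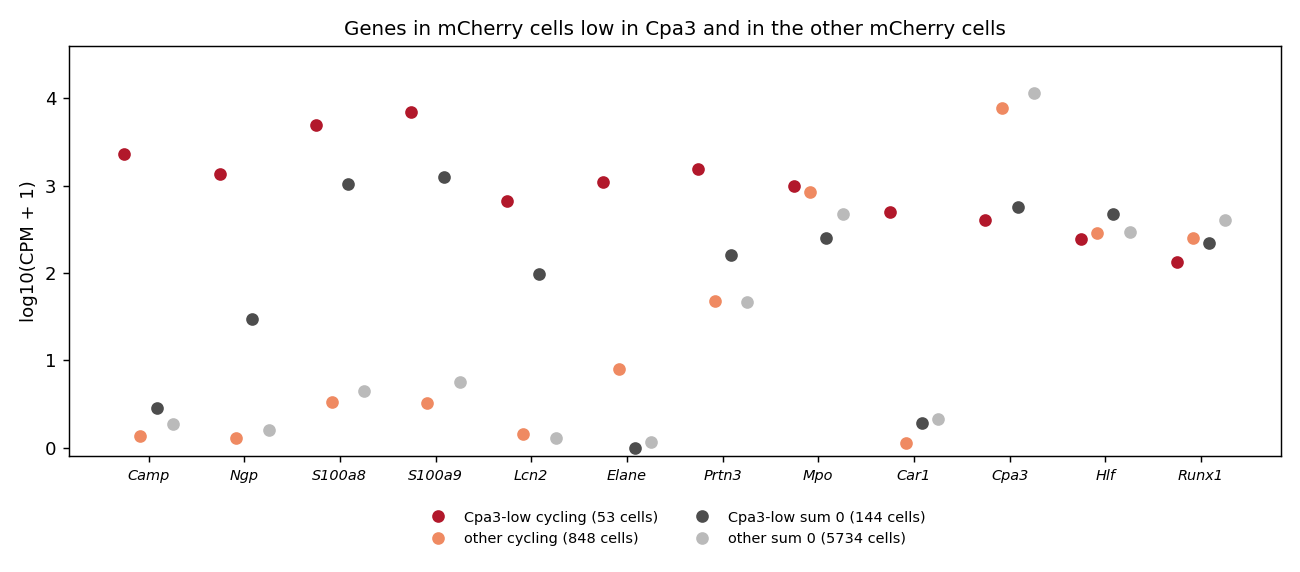
log10(CPM + 1) (y axis) of 12 genes (x axis) in mCherry cells with under 10 Cpa3 UMIs per 10000 and in the other mCherry cells, cycling and sum 0 apart. Points are sums over cells with no error. Camp stood at 2310 CPM in the 53 Cpa3-low cycling cells and at 0.358 CPM in the 848 others, while Mpo stood at 987 and 855 CPM.

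Outside a list of 615 cell cycle genes, 6020 genes were measured in the mCherry split. Of these 83 (1.38%) were at least 2-fold higher in cycling cells and 82 (1.36%) at least 2-fold lower. The 12 highest included Camp (log2 ratio 4.70), Elane (4.0), Ngp (3.87), S100a9 (3.55), S100a8 (3.32), Lcn2 (2.67) and Car1 (2.61), all in few cells. Camp was seen in 1.11% of cycling and 0.663% of sum-0 cells; all its UMIs in cycling cells lay in 10 cells. Without Cpa3-low cells the ratio was -0.13 for Camp, -0.08 for Ngp, -0.43 for S100a9, -0.19 for S100a8, 0.03 for Lcn2 and -0.25 for Car1, while Elane kept 1.22. Without those cells 68 of 5987 genes (1.14%) were 2-fold higher and 77 (1.29%) lower.

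The remaining highest genes were spread over many cycling cells and are known from dividing cells too, although the list of cycle genes does not hold them. Neil3 (chr8:53586867-53639065, minus strand, mm10), a glycosylase that repairs DNA in replicating cells, stood at 66.8 CPM in cycling and 0.815 CPM in sum-0 cells, 81.9-fold higher (59.3 to 116). It was seen in 53.2% of cycling and 0.629% of sum-0 cells. Lockd (chr6:134929092-134956798, plus strand), a long noncoding RNA encoded next to the CDK inhibitor gene Cdkn1b, stood at 101 against 7.76 CPM. Aunip, a partner of the mitotic kinase Aurora A, stood at 29.7 against 0.30 CPM. C330027C09Rik, now named Cip2a, an inhibitor of protein phosphatase 2A, stood at 36.6 against 1.44 CPM, and Apitd1, now Cenps, a kinetochore protein, at 36.1 against 2.04 CPM. All 5 reached 20 CPM in cycling mCherry cells alone and so had to be higher there. In control all 5 were also higher in cycling cells. The log2 ratios were 2.04 for Neil3, 1.45 for Lockd, 2.34 for Aunip, 1.79 for C330027C09Rik and 1.24 for Apitd1, against 3.63, 3.06, 2.71, 2.69 and 2.55 in mCherry. Neil3 and C330027C09Rik stayed under 20 CPM in both control groups, and Lockd, Aunip and Apitd1 reached it in cycling control cells alone. Chosen after their values were seen, the chromatin protein gene Nucks1 stood at 545 against 145 CPM and the histone chaperone gene Dnajc9 at 153 against 37.8 CPM among cells not low in Cpa3.

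Mast cell and basophil genes led the lower side. All 10 measured mast cell markers were lower by at least 0.32 in cycling mCherry cells (median -1.06), and all 6 basophil markers (median -1.56), where 16.8% of all measured genes were that much lower and 17.6% that much higher. Of these, 2 mast cell and 2 basophil markers reached 20 CPM in sum-0 cells alone and so had to be lower. The other 8 mast cell markers had a median of -1.02 and the other 4 basophil markers of -1.40, all 12 lower. Cma1 (chr14:55941451-55944675, minus strand) stood at 69.4 CPM in cycling and 781 CPM in sum-0 cells, 11.2-fold lower (10.6 to 12). It was seen in 23.6% and 23.5% of cells, so the cycling cells had fewer Cma1 UMIs per cell with the gene, and 10 cells held 61.2% of them. Mcpt4, another mast cell protease, stood at 1.95 against 23.1 CPM. Mcpt8, a basophil protease, stood at 22.7 against 96.9 CPM, Fcer1a, the binding chain of the IgE receptor, at 7.38 against 39.0 CPM, and its partner chain Fcer1g at 17.0 against 67.0 CPM. Mcpt4, Fcer1a and Fcer1g reached 20 CPM in sum-0 cells alone and so had to be lower. The chemokine genes Ccl4 and Ccl2 stood at 52.0 and 64.9 CPM in cycling cells against 293 and 256 CPM in sum-0 cells. Cpa3, at 7250 against 11300 CPM, differed less than these (log2 ratio -0.65). Depth-weighted, the ratios were nearer 0, at -0.67 for the mast cell median, -0.80 for the basophil median, -2.08 for Cma1 and -0.13 for Mcpt4. Among cells without a Cma1 UMI the medians were -0.64 and -0.95.

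Other genes among the lowest were of mixed roles. Gdf15, a stress-induced cytokine, stood at 6.84 CPM in cycling and 31.8 CPM in sum-0 cells, Ltb, lymphotoxin beta, at 22.9 against 80.7 CPM, and Ahnak, a large scaffold protein, at 18.6 against 62.9 CPM. Gdf15 and Ahnak reached 20 CPM in sum-0 cells alone and so had to be lower in cycling cells. Gm20186 had a log2 ratio of -1.45 and was seen in 59.2% of cycling and 69.4% of sum-0 cells. Depth-weighted, the log2 ratios of these 4 genes were -1.51 for Gdf15, -0.82 for Ltb, -1.16 for Ahnak and -1.31 for Gm20186.

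Stem cell markers were in part lower in cycling mCherry cells. Of 13 measured markers 5 were lower and 1 was higher by 0.32, with a median of -0.28, where 16.8% of all measured genes were lower and 17.6% higher. Hlf (chr11:90336536-90390895, minus strand) stood at 281 CPM in cycling and 297 CPM in sum-0 mCherry cells, a log2 ratio of -0.08, and was seen in 89.5% and 75.1% of them. In control it stood at 14.2 CPM in cycling and 69.8 CPM in sum-0 cells, a ratio of -1.96. Ly6a, the gene of the surface protein Sca-1, stood at 377 against 762 CPM in mCherry and at 3.24 against 34.2 CPM in control. Gata2, a transcription factor of stem and mast cells, stood at 116 against 216 CPM in mCherry, and Txnip, an inhibitor of glucose uptake, at 201 against 304 CPM. All 14 stem markers measured in either library had a ratio at least 0.32 less negative or more positive in mCherry than in control, with a median difference of 0.92, where 19.4% of all measured genes had so large a positive and 6.63% so large a negative difference. Depth-weighted, the medians of the stem markers were -0.21 in mCherry and -0.20 in control, and Hlf differed between the splits by 0.29 in place of 1.88. Kit, the receptor used for the sort, stood at 167 against 309 CPM in mCherry and 56.0 against 125 CPM in control.

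Markers of other lineages differed by lineage. Of all measured genes 17.6% were at least 0.32 higher and 16.8% that much lower in mCherry, and 20.5% and 25.6% in control. None of 5 lymphoid markers passed 0.32 in either direction (median -0.03), and 0 of 8 eosinophil markers were measured. Of 5 measured erythroid markers 1 was higher, Car1, and 1 lower, Hbb-bt, a beta globin gene, which stood at 207 CPM in cycling and 399 CPM in sum-0 mCherry cells. Car1 was seen in only 9 cycling mCherry cells, and without Cpa3-low cells its log2 ratio was -0.25. In control Hbb-bt stood at 148 against 26.3 CPM, and 13 of 14 erythroid markers were higher in cycling cells (median 1.45). Of 6 megakaryocyte markers 3 were lower (median -0.37, depth-weighted -0.14), with Plek, a platelet signalling protein, at 53.1 against 105 CPM. Of 14 neutrophil markers 9 were higher (median 1.18), 5 of which reached 20 CPM in cycling cells alone. Among the 9 measured in both groups 4 were higher and 2 lower (median 0.31). Without Cpa3-low cells 7 were measured, of which 1 was higher and 2 were lower. Mpo stood at 863 against 462 CPM in mCherry, a log2 ratio of 0.89, of 0.86 without Cpa3-low cells and of 0.42 depth-weighted. In control it stood at 2810 against 965 CPM.

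Most measured genes of nucleotide synthesis, splicing, nuclear transport, chaperones, the proteasome and ribosome biogenesis were higher in cycling mCherry cells. Of 27 genes of nucleotide and one-carbon synthesis 21 were higher and 0 lower (median 0.62), led by Mthfd2, a mitochondrial folate enzyme, at 25.8 against 3.62 CPM, and Shmt1, its cytosolic serine-using neighbour in the pathway, at 28.2 against 9.18 CPM. Of 28 spliceosome and hnRNP genes 25 were higher (median 0.55), with Snrpd1, a core protein of the small nuclear ribonucleoproteins, at 346 against 159 CPM. Of 18 nuclear transport genes 15 were higher (median 0.89), with Nup85, a nuclear pore subunit, at 37.5 against 11.3 CPM and Rcc1, the exchange factor of Ran, at 40.6 against 13.8 CPM. Of 27 chaperone genes 19 were higher and 1 lower (median 0.51), with Hspd1, the mitochondrial HSP60, at 360.0 against 203 CPM. Of 37 proteasome genes 25 were higher (median 0.43), and of 40 ribosome biogenesis genes 24 (median 0.36), with Nop56, a nucleolar protein, at 184 against 97.2 CPM. Depth-weighted, these medians were 0.41, 0.44, 0.77, 0.29, 0.27 and 0.17. Mthfd2 and Shmt1 were among 8 nucleotide genes that reached 20 CPM in cycling cells alone and so had to be higher. Nup85 and Rcc1 were among 9 such nuclear transport genes. Among genes at 20 CPM or more in both groups, 13 of 19 nucleotide genes (median 0.56), 6 of 9 nuclear transport genes (median 0.39) and 21 of 36 ribosome biogenesis genes (median 0.36) were higher, and 0 of each were lower.

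Not every growth list took part. Of 81 cytosolic ribosomal protein genes 2 were higher and 2 lower (median -0.02), and of 27 translation factors 8 were higher (median 0.18). Myc, chosen after its values were seen, stood at 93.1 CPM in cycling and 132 CPM in sum-0 mCherry cells. Among 8 measured members of its network 0 were higher and 4 lower (median -0.37), led by Mxd1 and Mxd4, which oppose Myc, at 98.1 against 192 CPM and 134 against 223 CPM. Of 11 G1 cyclins, their kinases and inhibitors 4 were higher and 5 lower, and of the 9 measured in both groups 2 were higher and 5 lower (median -0.32). Rbl1, the pocket protein p107, stood at 43.7 against 12 CPM, Cdkn2c, the inhibitor p18, at 34.1 against 14.7 CPM and Cdk4 at 351 against 195 CPM. Rbl1 and Cdkn2c reached 20 CPM in cycling cells alone and so had to be higher. Chosen after their values were seen, Cdkn1a, Ccnd2, Cdkn1b and Cdk6 were lower, with log2 ratios of -0.74, -0.6, -0.49 and -0.41.

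Mitochondrial genes split by the genome that encodes them. Of 76 nuclear genes of oxidative phosphorylation 53 were higher in cycling mCherry cells and 0 lower (median 0.40), with Ndufa4 at 1470 against 847 CPM and the ATP synthase subunit gene Atp5o at 309 against 185 CPM. Of 70 mitochondrial ribosomal protein genes 36 were higher and 0 lower (median 0.33), with Mrpl18 at 213 against 105 CPM. Of 12 genes in the mitochondrial genome 0 were higher and 1 lower (median -0.08), mt-Co1, a subunit of cytochrome oxidase, at 4330 against 5510 CPM. Of 18 tricarboxylic acid cycle genes 7 were higher (median 0.28), with Idh3a, a subunit of isocitrate dehydrogenase, at 58.0 against 30.3 CPM. Of 15 glycolysis genes 5 were higher and 2 lower, where 17.6% of all measured genes were that much higher and 16.8% that much lower. The lower count was near that share. Aldoa, an aldolase, stood at 140.0 against 270.0 CPM and the glucose transporter gene Slc2a3 at 46.7 against 94.3 CPM, while Tpi1, triose phosphate isomerase, stood at 290.0 against 165 CPM. Aldoa had a log2 ratio of -0.92 in mCherry and 0.23 in control.

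Fatty acid genes, the subject of the series, differed little across the split. Of 17 measured fatty acid oxidation genes 2 were higher and 1 lower in cycling mCherry cells (median 0.09), below the 17.6% and 16.8% of all measured genes. Etfa and Etfb, which pass electrons from fatty acid oxidation to the respiratory chain, stood at 83.9 against 58.4 CPM and 289 against 207 CPM. Cpt1a, which brings fatty acids into mitochondria, stood at 31.0 against 44.6 CPM. Of 15 genes of fatty acid synthesis, uptake and storage 1 was higher, Acsl5, an acyl-CoA synthetase, at 63.3 against 41.0 CPM. The lower 2 were Elovl7, an elongase, at 20.3 against 42.4 CPM, and Plin3, a lipid droplet protein, at 57.0 against 76.0 CPM. In control 4 of 17 oxidation genes were higher and 2 lower (median -0.07). Only 4 of 21 cholesterol synthesis genes were measured in mCherry.

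Immediate early genes, the first genes to answer growth factors or stress, were lower in the cycling cells without exception among those measured. All 19 measured members were at least 0.32 lower (median -0.89, depth-weighted -0.81). Egr1, a zinc finger factor, stood at 269 CPM in cycling and 714 CPM in sum-0 mCherry cells, Junb, an AP-1 subunit, at 1190 against 2690 CPM, and Zfp36, which marks cytokine RNA for decay, at 691 against 1570 CPM. Per cell, the summed list had quartiles of 42.6, 110.0 and 178 UMIs per 10000 in cycling cells and 120.0, 240.0 and 346 in sum-0 cells, so the ranges overlap. In control 16 of 19 were lower (median -1.18), and depth-weighted the control median was -0.16. Of 20 cytokine receptor and signalling genes 14 were lower and 0 higher in mCherry (median -0.48), where 16.8% of all measured genes were that much lower. Of these 20, 3 reached 20 CPM in sum-0 cells alone and so had to be lower, and 11 of the 17 measured in both groups were lower. Il1rl1, the receptor of interleukin-33 on mast cells, stood at 66.7 against 180.0 CPM, the feedback inhibitor gene Socs3 at 101 against 238 CPM and the kinase gene Pim1 at 823 against 1690 CPM. Malat1, a nuclear noncoding RNA, stood at 12000 against 22100 CPM.

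Interferon genes were moderately lower and MHC class I genes were level. Of 25 interferon response genes 14 were lower and 0 higher (median -0.32), and of the 21 measured in both groups 10 were lower (median -0.27), with Irf1 at 63.7 against 115 CPM and Irf7 at 25 against 44.7 CPM. Isg15, at 13.4 against 26.7 CPM, reached 20 CPM in sum-0 cells alone and so had to be lower. Of 11 MHC class I genes 1 was lower in mCherry, H2-T23, at 252 against 359 CPM (median -0.05), where 10 of 11 were lower in control (median -0.65). Depth-weighted, the MHC class I medians were 0.01 in mCherry and -0.23 in control. Of all measured genes 16.8% were at least 0.32 lower in mCherry and 25.6% in control. H2-Q7 stood at 362 against 290.0 CPM in mCherry and at 91.2 against 188 CPM in control. Of 8 p53 targets 2 were lower, near the 16.8% of all measured genes. The largest ratios of that list were those of the cell death gene Bbc3, at 10.5 against 25.1 CPM, and Trp53inp1, at 23.5 against 43.7 CPM. Bbc3 reached 20 CPM in sum-0 cells alone and so had to be lower. Of 18 genes of the ATF4 response and tRNA synthetases 9 were higher and 1 lower (median 0.33), where 17.6% of all measured genes were higher. Of the 15 measured in both groups 7 were higher and 1 lower (median 0.29). Psat1 and Phgdh, enzymes of serine synthesis, stood at 75 against 32.9 CPM and 136 against 68.3 CPM. Of 26 lysosome and autophagy genes 10 were lower and 1 higher, with Sqstm1, the autophagy receptor p62, at 95.7 against 202 CPM. Of the 24 measured in both groups 8 were lower and 1 higher, beside the 16.8% and 17.6% of all measured genes.

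The genes that form the fusion were both lower in the cycling cells. Runx1 stood at 246 CPM in cycling and 398 CPM in sum-0 mCherry cells (log2 ratio -0.69, depth-weighted -0.53), and at 129 against 216 CPM in control (-0.71). Runx1t1 stood at 4.36 against 9.44 CPM in mCherry, from 65 and 440 UMIs, 2.16-fold lower (1.66 to 2.85). A UMI was seen in 6.99% of cycling and 7.04% of sum-0 cells. In cycling and sum-0 control cells Runx1t1 had 19 and 6 UMIs, in 0.364% and 0.447% of cells. Cbfa2t3, the ETO family member of blood progenitors, stood at 92.0 against 177 CPM, and Cbfb, the binding partner of Runx1, at 74.3 against 57.7 CPM. Among genes that AML1-ETO is reported to lower, 1 of 7 was higher, Mpo, and 4 were lower. Of all measured genes 17.6% were that much higher and 16.8% that much lower. Lat2, an adaptor of myeloid and mast cells, stood at 50.5 against 139 CPM and Spi1, the factor PU.1, at 56.1 against 80.9 CPM. Of the 6 at 20 CPM or more in both groups, 1 was higher and 4 were lower. Among 3 measured genes it is reported to raise, 2 were lower, Jup at 15.6 against 25.7 CPM and Plcg1 at 33.5 against 48.9 CPM. Of the 3, 2 reached 20 CPM in sum-0 cells alone, Jup among them, and so had to be lower in cycling cells. Only 1, Plcg1, was measured in both groups.

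The same split in control gave the same direction for the biosynthesis lists, and ratios of mast cell, basophil and stem genes that were more negative before depth weighting but not after it. Of 5635 measured genes there, 73 (1.30%) were 2-fold higher and 273 (4.84%) 2-fold lower in cycling cells. At 0.32 the shares were 20.5% higher and 25.6% lower. The medians in mCherry were 0.40 for nuclear oxidative phosphorylation, 0.43 for the proteasome, 0.51 for chaperones, 0.62 for nucleotide synthesis, 0.55 for the spliceosome and 0.36 for ribosome biogenesis, against 0.38, 0.43, 0.51, 0.47, 0.34 and 0.29 in control. Depth-weighted, those of mCherry lay between 0.17 and 0.44 and those of control between 0.04 and 0.09. Mast cell, basophil and stem medians were -1.06, -1.56 and -0.28 in mCherry, and -1.92, -1.97 and -1.30 in control. Depth-weighted, the mCherry medians were -0.67, -0.80 and -0.21, and the control medians -0.15, 0.06 and -0.20, so the mast cell and basophil order turned round and the stem medians were close. The depth-weighted control values rest on few deep sum-0 cells.

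**Figure D4:**
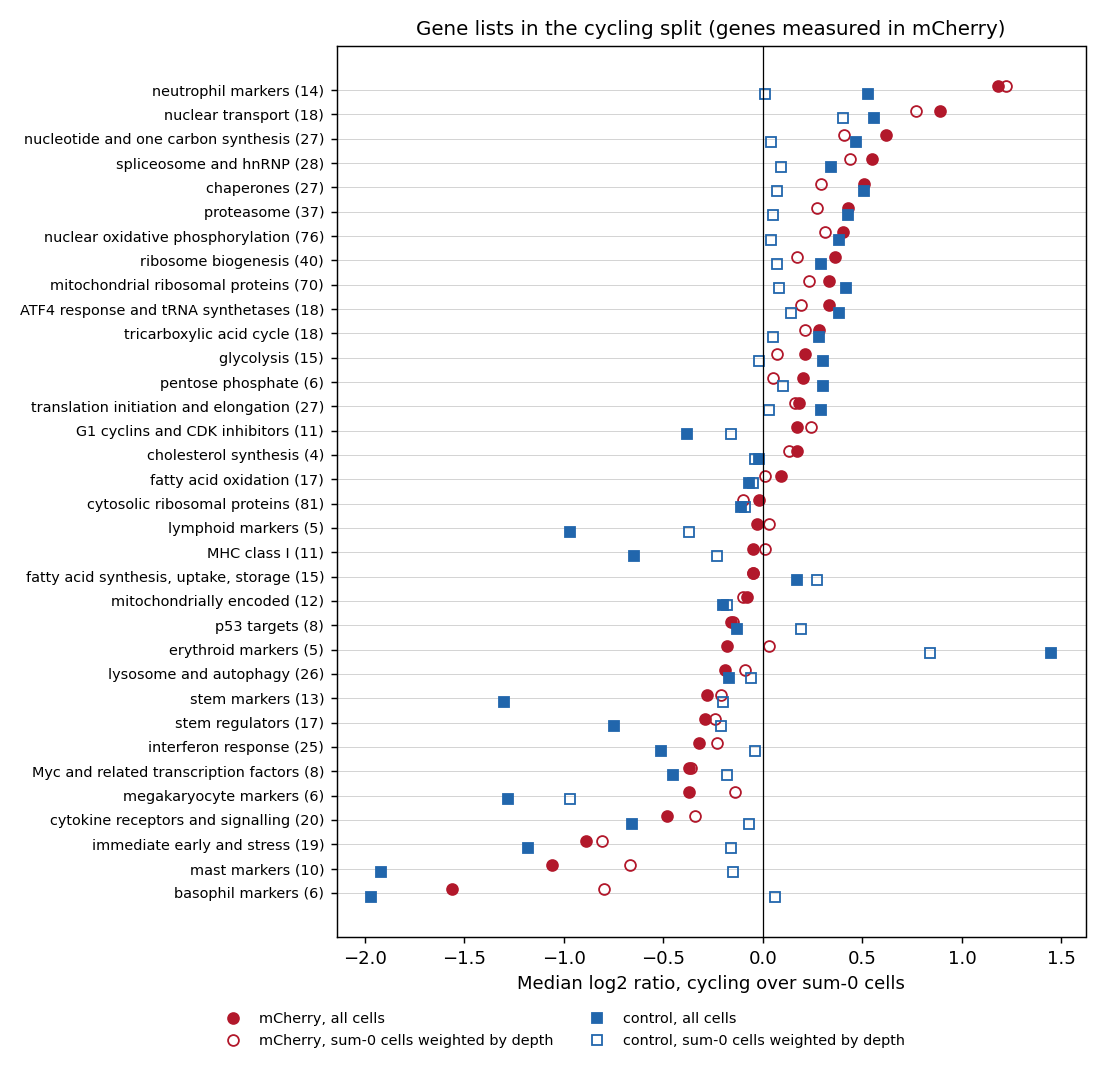
Median log2 ratio of cycling over sum-0 cells (x axis) for gene lists with at least 4 genes measured in mCherry (y axis, that number in brackets), in mCherry (circles) and control (squares), for all cells (filled) and with sum-0 cells weighted by depth (open). No error is drawn. Nuclear transport lay at 0.89 in mCherry and 0.56 in control, and depth-weighted at 0.77 and 0.40, while mast cell markers lay at -1.06 and -1.92. Of the nuclear transport genes, 9 in mCherry and 7 in control reached 20 CPM in cycling cells alone and so had to be higher. Among genes at 20 CPM or more in both cell groups, the medians were 0.39 and 0.41 for nuclear transport. For mast cell markers they were -1.02 and -1.28.

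The difference of the splits, mCherry minus control, was at least 2-fold to the positive side for 133 of 6466 measured genes (2.06%) and to the negative side for 52 (0.804%). Its highest values belonged to neutrophil granule genes, held mainly by Cpa3-low cells among the cycling mCherry cells, and to Jchain and Gzmb. Jchain, the joining chain of secreted antibodies, stood at 6.18 CPM in cycling and 507 CPM in sum-0 control cells, where its UMIs lay in 15 of 1343 cells (1.12%). Gzmb, a protease of killer cells, stood at 3.36 against 175 CPM there, and both were under 1 CPM in each mCherry group. Its lowest values belonged to red cell genes. Hba-a1, an alpha globin gene, stood at 0.738 against 1.01 CPM in mCherry and at 185 against 13.9 CPM in control, a difference of -3.39. Hbb-bs, a beta globin gene, differed by -2.97 and the Rh antigen gene Rhd by -2.31. F13a1, a clotting factor subunit of monocytes and platelets, stood at 0.939 against 0.407 CPM in mCherry and 141 against 23.3 CPM in control. Globin differences were also found when depth-weighted, at -4.43 for Hba-a1 and -4.18 for Hbb-bs. Among cycling control cells, 10 cells held 55.4% of the Hba-a1 UMIs and 10 held 60.6% of the Hbb-bs UMIs. Hba-a1, Rhd and F13a1 stood under the pseudocount of 5 CPM in both mCherry groups. Their differences are therefore mainly the control ratios.

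Along the marker sum the values did not all move at the same class. In mCherry, Cma1, immediate early genes, Malat1 and nuclear oxidative phosphorylation genes differed mainly below a sum of 10, while G2 and M genes without the markers stood at 1.14, 2.79, 3.75 and 6.98 times their sum-0 level from the lowest class to the highest. Cma1 stood at 781 CPM in sum-0 mCherry cells, 458 at 1 to 4 marker UMIs, 89.0 at 5 to 9, 44.0 at 10 to 19 and 70.2 at 20 or more. Immediate early genes summed to 23560, 20950, 13820, 11610 and 10940 CPM over the same classes, and Malat1 stood at 22100, 19900, 10900, 11100 and 12600 CPM. Nuclear oxidative phosphorylation genes summed to 15420, 16390, 20710, 20700 and 20100 CPM. Hlf was nearly flat, at 297, 302, 284, 263 and 286 CPM. In control it stood at 69.8, 36.5, 14.3, 14.1 and 14.3 CPM. The median depth moved with the classes, from 7616.5 UMIs at a sum of 0 to 18454.5 UMIs at 20 or more in mCherry.

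**Figure D5:**
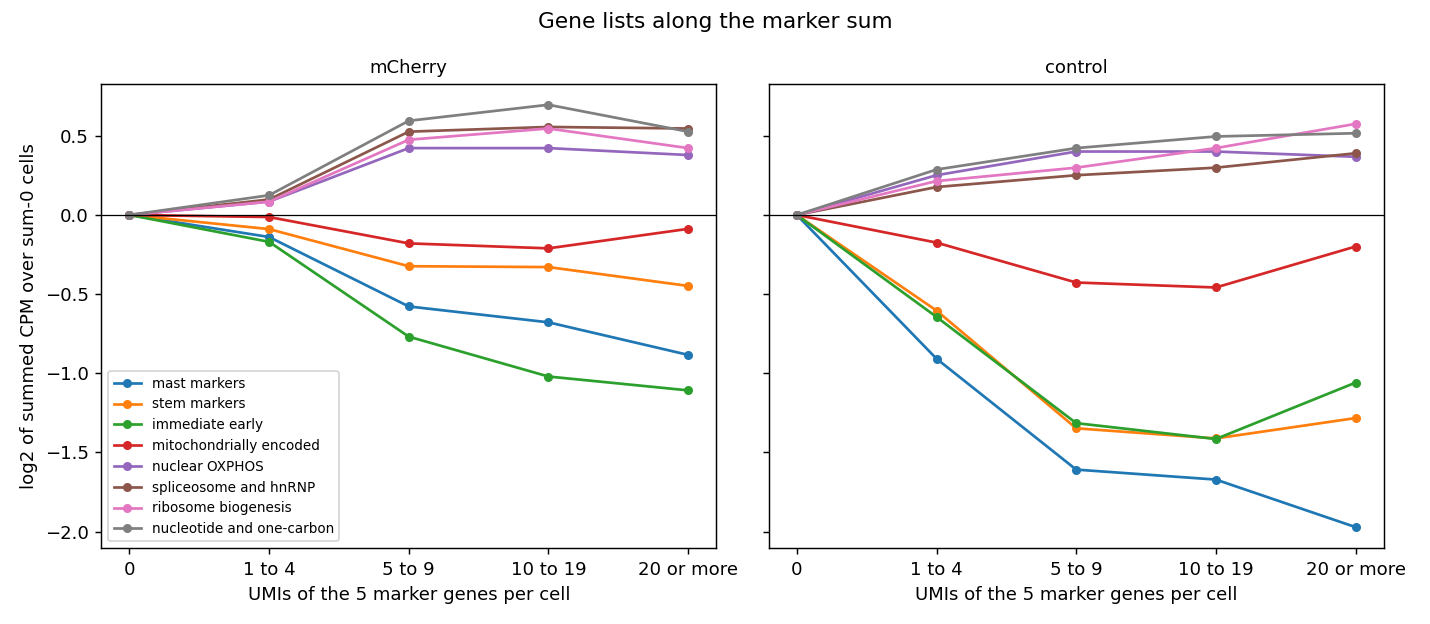
log2 of the summed CPM of a gene list over its value in sum-0 cells (y axis), for cells by their marker sum (x axis), in mCherry (left) and control (right); the 5 markers are left out and no error is drawn. In mCherry the spliceosome list reached 1.44-fold its sum-0 level at 5 to 9 marker UMIs and the immediate early list 0.587-fold, against 1.19-fold and 0.402-fold in control.

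In the non_mCherry library, sorted from the same mouse, 3722 cycling cells stood against 2014 sum-0 cells. Of 5658 measured genes 125 (2.21%) were 2-fold higher and 302 (5.34%) 2-fold lower in the cycling cells, and 25.2% and 29.5% passed 0.32. Erythroid markers were higher in 13 of 14 (median 1.57), where mCherry had 1 of 5 higher, and stem cell markers were lower in 8 of 11 (median -1.30). Mast cell markers were lower in 9 of 9 (median -2.21). Nuclear oxidative phosphorylation genes were higher in 57 of 76 (median 0.46), ribosome biogenesis genes in 36 of 44 (median 0.52) and chaperones in 24 of 27 (median 0.61). All 18 measured immediate early genes were lower (median -1.57). Of 17 fatty acid oxidation genes 2 were higher and 1 lower (median -0.05).

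Set directly against the 5213 cycling control cells, the 901 cycling mCherry cells had higher stem, mast cell and immediate early genes and lower erythroid and ribosome biogenesis genes. Of 5982 measured genes 708 (11.8%) were 2-fold higher and 290 (4.85%) 2-fold lower in mCherry, and 36.9% and 25.8% passed 0.32. Stem cell markers were higher in 12 of 14 (median 1.97) and mast cell markers in 8 of 8 (median 1.91). Immediate early genes were higher in 17 of 19 (median 1.81) and interferon response genes in 18 of 23 (median 1.38). Erythroid markers were lower in 11 of 14 (median -2.68). A marker that reached 20 CPM in only 1 of these groups could only be higher in that group. Only 5 erythroid markers reached 20 CPM in cycling or sum-0 mCherry cells. In cycling control cells only 4 mast cell and 8 stem markers reached it. Ribosome biogenesis genes were lower in 44 of 45 (median -0.76), nuclear oxidative phosphorylation genes in 58 of 76 (median -0.51) and nucleotide and one-carbon genes in 20 of 28 (median -0.62). By level, Mpo stood at 863 CPM in cycling mCherry and 2810 CPM in cycling control cells, Elane at 77.3 and 3150 CPM, Cpa3 at 7250 and 62.4 CPM, and Hlf at 281 and 14.2 CPM. S phase genes differed little (median -0.15, 2 of 42 higher and 13 lower), while G2 and M genes without the markers were higher in 39 of 47 (median 0.83). The rule's fixed sum bears on this difference as on the markers, and its part was not tested. The groups differ in genotype, mouse, depth and mix of cell kinds at once, and these cannot be told apart.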

How the data were processed

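The authors deposited a sparse matrix of whole UMI counts per library with its barcodes and 27998 gene identifiers. Per the submitters' processing notes these came from Cell Ranger 6.1.2 on mm10, while the matrix headers carry software version 3.1.0. Each library was its own group, named by its label. The 5 marker genes, the cell filters and the 42 gene lists were chosen with earlier results of these data known. UMIs were summed over cells and divided to CPM, with no significance test. At 14906333 UMIs over the cycling mCherry cells, a count of 0 allows up to 0.201 CPM (3 counts). Fold intervals are exact intervals of Poisson ratios at 95%. Depth weighting gave sum-0 cells the depth classes (0.25 on the log2 scale) of cycling cells. Doublets were scored per library by the Scrublet method, rebuilt with scikit-learn 1.9.0, and were kept except in an alternative. Doublets of like cells cannot be found so. Named genes were the 12 highest and 12 lowest outside the list of 615 cell cycle genes, the 8 highest and 8 lowest differences of the splits, the 3 largest ratios of each list, the markers, and Runx1, Runx1t1, Kit, Cma1, Cpa3, Hlf and Malat1. The knock-in and mCherry sequences are not among the genes listed. Locations came from GENCODE, which matched 27645 identifiers, and promoters from RefSeq. Scripts, checked on simulated counts, used Python 3.11.15, numpy 2.4.6, scipy 1.17.1 and pandas 2.3.3. Of the 12 lowest genes 1 is not reported here.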

Additional observations from a re-analysis of the deposited data

Results flagged for a closer look

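For 6 neutrophil granule or calcium-binding genes the split ran in opposite directions, higher in cycling cells of mCherry and lower in cycling cells of control. The difference of the log2 ratios was 6.51 for Camp, 6.13 for Ngp, 6.09 for S100a9, 5.60 for S100a8, 4.92 for Lcn2 and 4.08 for Ltf, and with 1 library each it was not tested. S100a9 stood at 445 CPM in cycling and 33.4 CPM in sum-0 mCherry cells, and at 334 and 1960 CPM in control. The 53 Cpa3-low cycling cells held at least 97.7% of the UMIs of each of these genes in cycling mCherry cells. Without Cpa3-low cells, left out of mCherry only, the differences were 1.68, 2.18, 2.11, 2.09, 2.29 and 2.66 in the same order of genes. All 6 genes then stood under the pseudocount of 5 CPM in both mCherry groups, with log2 ratios from -0.43 to 0.03. These differences are therefore mainly the control ratios and show no difference within mCherry. With depth weighting in both libraries and all cells kept, the differences were 1.93, 1.42, 3.73, 4.79, 2.14 and -0.12. In control the depth-weighted log2 ratios were 3.04, 2.63, 2.03, 0.83, 1.19 and 1.60, so with depth weighting the opposite direction was no longer seen in any of the 6 genes. Those control values rest on the equivalent of 45 sum-0 cells.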

How the results depend on the processing

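No paired analysis was possible because each group has 1 library, and for the same reason no library could be left out. The cycling share in mCherry (8.65%), non_mCherry (46.2%) and control (57.5%) moved to 5.96, 32.0 and 28.1% at 5000 UMIs, 12.7, 55.4 and 67.8% at 3 marker UMIs, 6.16, 32.4 and 40.3% at 10 marker UMIs, and, with all barcodes kept, to 39.3% in non_mCherry and 53.8% in control. The counts of 2-fold genes (83 higher and 82 lower in mCherry, 73 and 273 in control, 133 and 52 for the difference) moved to 36, 38, 38, 126, 57 and 33 with a pseudocount of 20 CPM. A pseudocount of 1 CPM gave 229 higher differences. Depth weighting gave 33 lower in mCherry, 26 and 42 in control and 80 higher differences. Thinning gave 41 and 46 in control and 46 higher differences. Weighting by marker strata gave 34 and 150 in control and 33 lower differences. A filter of 50 CPM gave 38 higher in mCherry, 145 lower in control, and differences of 83 and 29. Of 994 list medians under 14 settings 28 changed sign, most from a value nearer 0 than 0.32. The 3 from beyond it were basophil markers in control (0.06, depth) and neutrophil markers in mCherry (-0.03 in cells with at least 3 Cma1 UMIs, -0.11 without Cpa3-low cells, chosen after the values were seen). Of 2310 values of genes measured in the split 51 changed sign, 17 of them from beyond 0.32. Among cells with at least 3 Cma1 UMIs (30 cycling) these were Camp -0.34, Ngp -0.39, S100a9 -0.25, Car1 -0.27, Treml1 0.31, Cpt1a 0.09, Aen -0.02 and Srm -0.51. Without Cpa3-low cells they were Camp -0.13, Ngp -0.08, S100a9 -0.43, S100a8 -0.19 and Car1 -0.25, and with depth weighting added Ngp -0.17, S100a9 -0.08, Car1 -0.18 and Prtn3 -0.01. In the control split 29 of 147 named genes past 0.32 changed sign when depth-weighted. The cause was not tested.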
